A study of Mus musculus with 12 samples.

Results

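The 54 genes described here are those of the G2/M phase list of the Seurat software, which is used to score cells that are between the end of DNA replication and the end of mitosis. They were picked by gene symbol out of 28995 genes held by the deposited tables, and all 54 were found in each of the 3 tables. Primary fibroblasts were grown from the hindlimb skeletal muscle of wild-type C57 BL/10 mice 3 days after birth, and the cells of each of 2 mice were pooled and re-plated. All plates were kept in medium with 10% charcoal-stripped serum from 24 hours before treatment. They then received 1 µM aldosterone, 1 µM spironolactone or the DMSO vehicle for 48 hours, with 2 plates per mouse and treatment, so that 4 libraries of poly(A) RNA represent each treatment. The labels give each library a sample number and a biological replicate number, both either 1 or 2, and name neither of them as the number of the mouse. The p-values therefore measure the spread between these 4 plates per treatment, which come from 2 mice. Below, the first and second plate of a sample number are its libraries with biological replicate number 1 and 2. This wording does not settle which number is the mouse.

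Aldosterone is the ligand of the mineralocorticoid receptor and at a high dose also binds the glucocorticoid receptor, and spironolactone is an antagonist of the mineralocorticoid receptor. Genes of the G2/M list are transcribed late in the cell cycle. In resting cells the DREAM complex, which contains the pocket proteins Rbl1 or Rbl2, holds many of them off, and in cycling cells the MuvB core joins Mybl2 and Foxm1 to switch them on. These complexes reach their promoters largely through a short element near the transcription start, the cell cycle genes homology region or CHR, often next to CCAAT boxes that bind NF-Y. In a fibroblast culture the level of these transcripts is commonly read as a mark of how many cells are dividing. In bulk RNA, however, fewer dividing cells and less RNA per dividing cell cannot be told apart.

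Promoter letters are shown for 6 members that move apart: Bub1 and Kif23, whose fitted falls were the largest, Ccnb2 and Cdk1, which make up a mitotic cyclin-CDK pair, and Cks1b and Ckap5, which did not pass the test against vehicle. Each runs from 100 bases before to 30 bases after the RefSeq start (GRCm38.p6), 5′ to 3′ on the strand of the gene. Capitals mark CHR letters (TTTGAA or TTCGAA, on either strand) and CCAAT boxes (CCAAT, on either strand).
Bub1, chr2:127831830-127831959, minus strand: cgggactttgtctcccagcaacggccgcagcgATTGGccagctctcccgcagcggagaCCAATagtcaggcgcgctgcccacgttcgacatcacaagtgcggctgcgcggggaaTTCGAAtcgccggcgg
Kif23, chr9:61946770-61946899, minus strand: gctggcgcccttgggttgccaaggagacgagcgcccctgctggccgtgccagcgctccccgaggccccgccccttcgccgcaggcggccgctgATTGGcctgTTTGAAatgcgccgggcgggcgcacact
Ccnb2, chr9:70421525-70421654, minus strand: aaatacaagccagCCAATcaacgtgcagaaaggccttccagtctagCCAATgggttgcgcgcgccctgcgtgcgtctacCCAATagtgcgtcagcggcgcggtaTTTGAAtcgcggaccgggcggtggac
Cdk1, chr10:69352883-69353012, minus strand: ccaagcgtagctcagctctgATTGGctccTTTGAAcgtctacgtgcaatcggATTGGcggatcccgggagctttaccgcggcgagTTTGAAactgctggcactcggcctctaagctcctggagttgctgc
Cks1b, chr3:89418262-89418391, minus strand: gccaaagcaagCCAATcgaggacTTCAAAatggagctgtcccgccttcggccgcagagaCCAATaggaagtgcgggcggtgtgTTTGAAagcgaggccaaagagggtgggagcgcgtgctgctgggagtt
Ckap5, chr2:91526662-91526791, plus strand: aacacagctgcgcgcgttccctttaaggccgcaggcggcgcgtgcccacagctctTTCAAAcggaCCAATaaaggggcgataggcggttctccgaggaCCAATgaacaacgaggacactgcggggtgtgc

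The 6 windows hold both kinds of element, including those of Cks1b and Ckap5. RefSeq windows of 250 bases before to 50 bases after the start were held for 47 of the 54 members, as 52 windows. CHR letters were in 36 of the 47 (76.6%), against 21.7% of the 27025 genes of the promoter table. CCAAT was in 36 of 47 (76.6%), against 41.1%, and both kinds were in 29 (61.7%), against 8.61%. A gene counted once if any of its windows held a match, however many it held. For both kinds, the matches had to lie in the same window. Neighbouring matches may share bases. With the 250 bases before the start alone, CHR letters were in 22 of 47, so that part of the matches lay after the start, as in Bub1, Kif23 and Ccnb2. The letters TGTTCT, a piece of the DNA element bound by the mineralocorticoid and glucocorticoid receptors, were in 4 of 47 on either strand (8.51%), against 21.3% of all promoters. All 54 members passed a mean of 10 normalized counts. Over the 10852 genes of the promoter table that did so, the shares were 16.4% for CHR letters, 43.1% for CCAAT, 6.86% for both and 14.4% for TGTTCT. These matches are descriptions of letters, not binding sites. The median log2 fold change with aldosterone was -0.60 over the 36 members with CHR letters and -0.53 over the 11 without. With CCAAT it was -0.59 (36 members) and without it -0.63 (11), and with TGTTCT it was -0.78 (4) and without it -0.59 (43). None of these medians was tested.

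The first comparison asked how aldosterone changed these genes relative to vehicle. With aldosterone, 46 of the 54 genes fell (adjusted p up to 0.05, limma) and 0 rose, and 53 of 54 had a lower fitted value. The median log2 fold change was -0.59, which is a change of -33.6%, while the median over all 27319 genes of the table was -0.01. By their medians, kinesins (-0.76), mitotic kinases (-0.69) and kinetochore genes (-0.68) stood lowest and genes of chromatin and the nuclear envelope (-0.19) nearest to 0, and these medians were not tested against each other. Values are normalized counts, that is, counts of a gene scaled by one factor per library, and fold changes were fitted with limma on log2(normalized count + 1) for all genes of a table with Benjamini-Hochberg adjustment. Over all genes, 4.74% were called lower and 5.68% higher.

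None of the members passed the added threshold of an absolute log2 fold change of 1, since no fitted fall reached it, by limma, edgeR or DESeq2. Of all genes, 0.666% passed both thresholds on the lower side. In 49 of the 54 members every aldosterone library lay below every vehicle library, against 6.9% of all genes. A fall of at least 0.5 on the log2 scale was fitted for 35 members, one between 0.3 and 0.5 for 7, and a smaller change for 12. Reads on the 54 genes made up 0.274 to 0.281% of all gene reads in vehicle libraries and 0.202 to 0.209% in aldosterone libraries, so the groups did not overlap. In spironolactone libraries the share was 0.282 to 0.289%. Gene reads numbered 19136923 to 30219185 per library (median 23833380), and the lowest value of any member in this table was 85.6 normalized counts, so that all 54 passed a mean of 10.

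**Figure D1:**
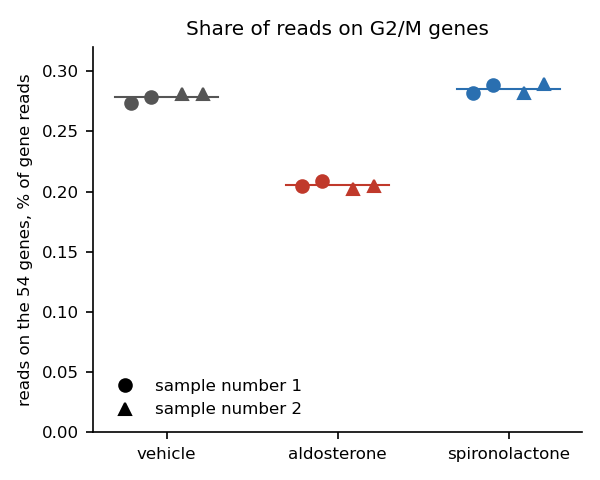
Percent of all reads on genes that fell on the 54 G2/M genes, for each of the 12 libraries, with a line at the mean of each treatment and a different symbol for each sample number. The 4 aldosterone libraries lie at 0.202 to 0.209%, below the other 8.

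**Figure D2:**
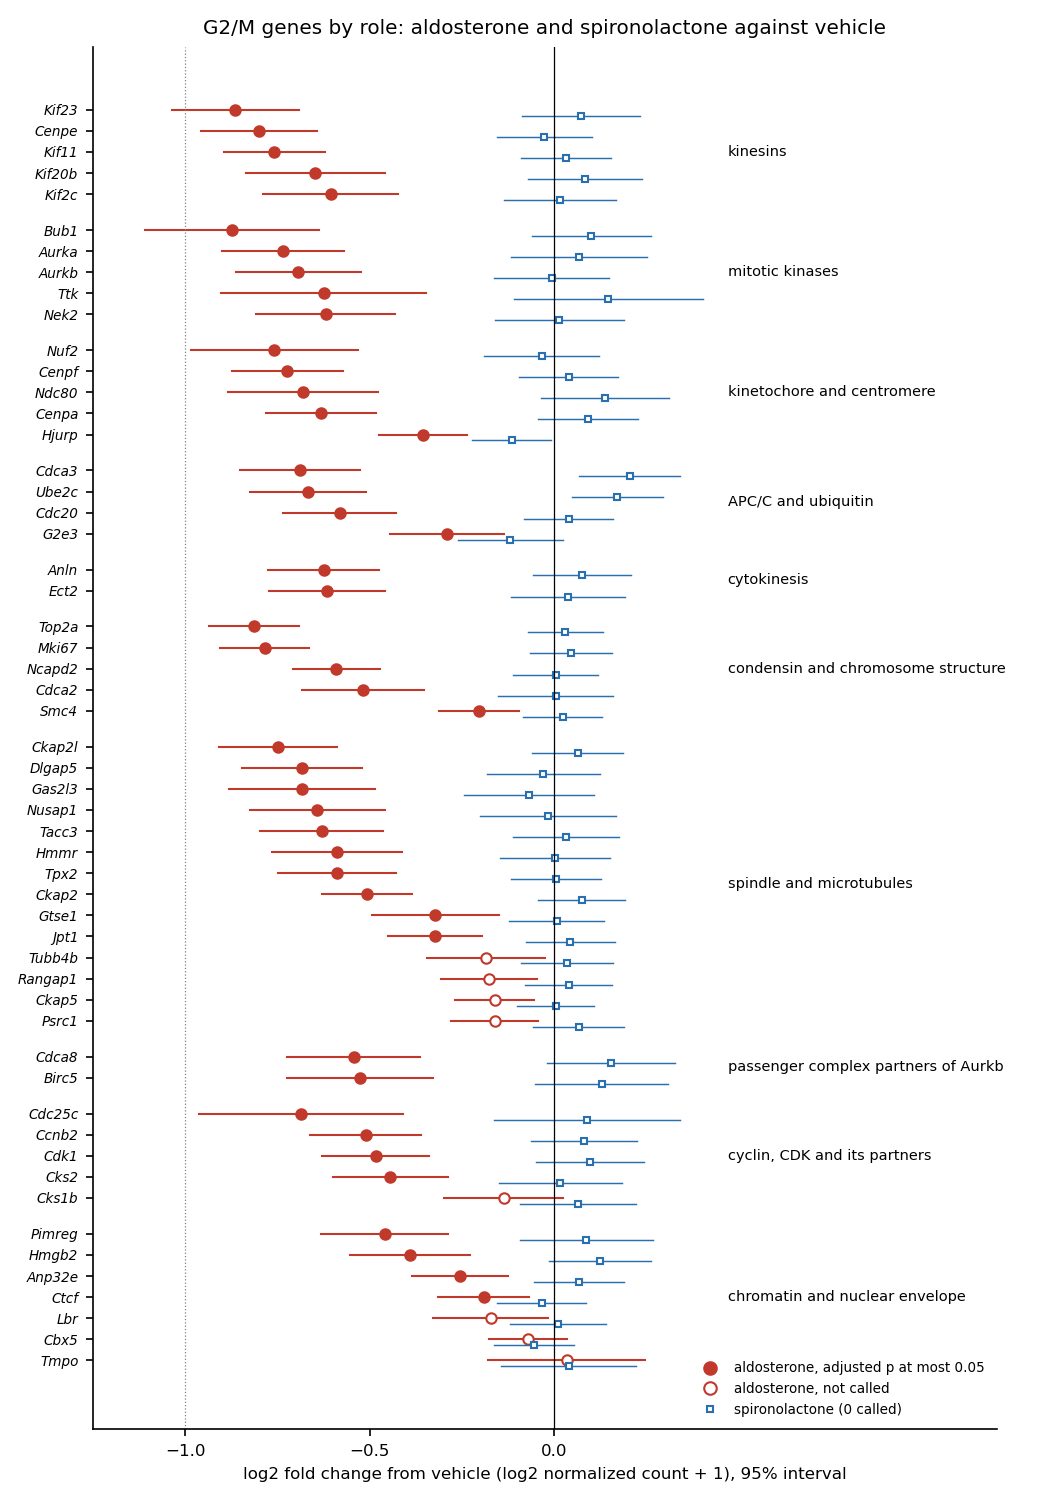
Log2 fold change from vehicle with its 95% interval for each of the 54 genes, grouped by role, for aldosterone (circles, filled where the adjusted p was at most 0.05) and spironolactone (squares), with a dotted line at -1. The aldosterone values run from -0.87 for Bub1 to 0.03 for Tmpo, and the spironolactone values lie around 0.

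All 5 mitotic kinases fell, with a median log2 fold change of -0.69. Bub1, a kinase of the spindle checkpoint that sits at kinetochores (chr2:127643036-127673785 in the mm39 positions of the tables), had the largest fitted fall of the 54. Bub1 stood at 418, 414, 421 and 419.7 normalized counts in the 4 vehicle libraries and at 285, 236, 184 and 217 in the 4 aldosterone libraries. The vehicle libraries lay within a few percent of each other while the aldosterone libraries spread more widely, all below them (log2 fold change -0.87, SE 0.112, adjusted p = 4.91e-05 by limma). Aurkb is the enzyme of the chromosomal passenger complex, which corrects faulty attachments of chromosomes to the spindle. Aurkb stood at 566, 603, 538 and 514 normalized counts in the 4 vehicle libraries and at 338, 371, 316 and 347 in the 4 aldosterone libraries. The groups did not overlap and Aurkb fell from 555 ± 38.2 to 343 ± 22.8 (SD, n = 4), a log2 fold change of -0.69, SE 0.0801, adjusted p = 1.70e-05 by limma. The log2 fold changes of the others were -0.73 for Aurka, the kinase of centrosomes and spindle poles, -0.62 for Ttk, which starts the spindle checkpoint, and -0.62 for Nek2, which splits the centrosomes. Birc5 and Cdca8, non-enzyme members of the passenger complex, fell by 0.53 and 0.54 on the log2 scale.

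The 5 kinesins, motor proteins that move along or take apart microtubules, all fell, with a median log2 fold change of -0.76. Kif23 is part of the centralspindlin complex of the midzone (chr9:61823187-61854056). Kif23 stood at 625, 608, 577 and 652 normalized counts in the 4 vehicle libraries and at 304, 376, 344 and 329.7 in the 4 aldosterone libraries. Its highest aldosterone library was far below its lowest vehicle library (log2 fold change -0.86, SE 0.0810, adjusted p = 1.64e-06 by limma). Cenpe carries chromosomes to the spindle equator. Cenpe stood at 831, 882, 865 and 947 normalized counts in the 4 vehicle libraries and at 532, 549, 473 and 469 in the 4 aldosterone libraries. Again the groups did not overlap (log2 fold change -0.80, SE 0.0740, adjusted p = 1.38e-06 by limma). Kif11 pushes the spindle poles apart. Kif11 stood at 954, 935, 923 and 952 normalized counts in the 4 vehicle libraries and at 557, 583, 512 and 574 in the 4 aldosterone libraries. Kif11 fell from 941 ± 14.9 to 556 ± 31.5 (SD, n = 4), with log2 fold change -0.76, SE 0.0647, adjusted p = 5.15e-07 by limma. Kif20b, needed in the last steps of cytokinesis, fell by 0.65 and the microtubule depolymerase Kif2c by 0.61 on the log2 scale.

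All 5 kinetochore and centromere genes fell, with a median log2 fold change of -0.68. Ndc80 and Nuf2 encode subunits of the complex that holds microtubule ends at the kinetochore. Ndc80 stood at 373, 321, 305 and 333 normalized counts in the 4 vehicle libraries and at 218, 222, 199 and 191 in the 4 aldosterone libraries. The groups did not overlap (log2 fold change -0.68, SE 0.0957, adjusted p = 0.00013 by limma), and Nuf2 had a log2 fold change of -0.76. Cenpf, a large protein of the outer kinetochore, had -0.72, and Cenpa, the histone variant that marks centromeres, had -0.63. Hjurp, the chaperone that loads the Cenpa protein, changed least of these genes, with a log2 fold change of -0.35.

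The 5 genes of condensin and chromosome structure all fell, but over a wide range. Top2a, the topoisomerase that untangles sister DNA, fell from 3346 ± 77.2 to 1907 ± 133 (SD, n = 4) normalized counts. Top2a stood at 3378, 3434, 3321 and 3254 normalized counts in the 4 vehicle libraries and at 1940.2, 2080.2, 1789.9 and 1816 in the 4 aldosterone libraries. Its adjusted p was the smallest among the members (log2 fold change -0.81, SE 0.0580, adjusted p = 6.28e-08 by limma). Mki67 encodes the Ki-67 protein, which coats mitotic chromosomes and serves as a stain for cycling cells. Mki67 stood at 2996, 2959.6, 2978 and 3132 normalized counts in the 4 vehicle libraries and at 1769.7, 1893, 1642 and 1707 in the 4 aldosterone libraries. Every aldosterone value lay below every vehicle value (log2 fold change -0.78). Ncapd2, a regulatory subunit of condensin, fell by 0.59 and Cdca2, which brings a phosphatase to chromosomes at mitotic exit, by 0.52 on the log2 scale. Smc4, an ATPase subunit shared by both condensins, had a much smaller fall. Smc4 stood at 2247, 2375, 2356 and 2346 normalized counts in the 4 vehicle libraries and at 1987, 2025, 2008 and 2073 in the 4 aldosterone libraries. These groups did not overlap either, although the difference was a change of -13.2% (log2 fold change -0.20, SE 0.0507, adjusted p = 0.0146 by limma).

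**Figure D3:**
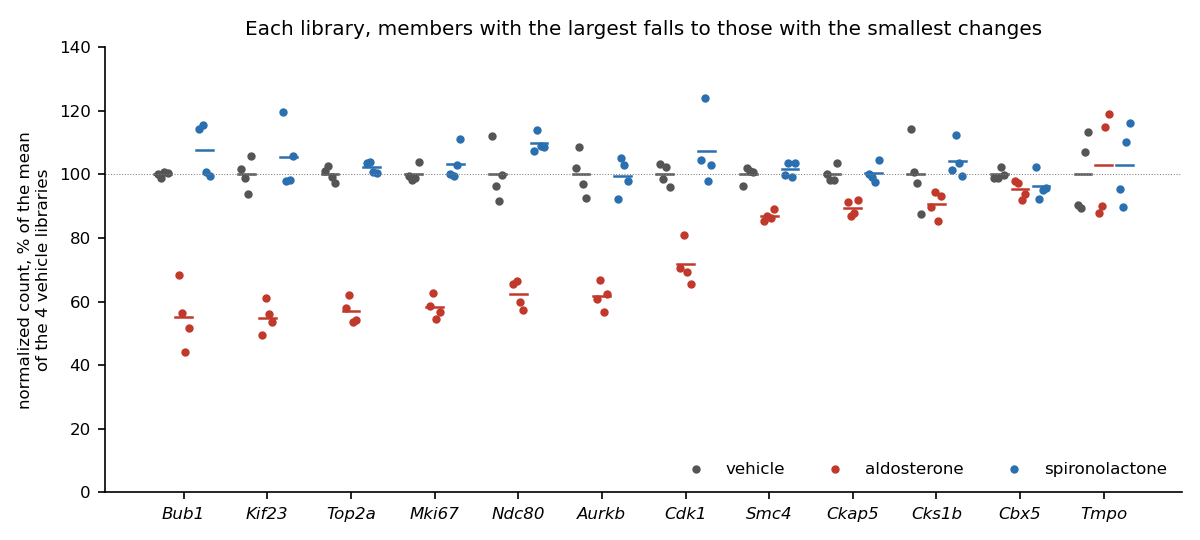
Normalized counts of 12 members in each library as a percent of the mean of the 4 vehicle libraries of the same table (vehicle and aldosterone from their shared table, spironolactone from its table with vehicle), with a line at each mean. Aldosterone libraries of Bub1, Kif23, Top2a and Mki67 lie well below 100%, those of Smc4 and Ckap5 closer to it, and those of Tmpo on both sides of it.

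Among the cyclin and CDK genes 4 of 5 fell, with a median log2 fold change of -0.48. Cdk1 is the kinase that drives entry into mitosis. Cdk1 stood at 1380.1, 1315, 1369 and 1283 normalized counts in the 4 vehicle libraries and at 944, 1083, 927 and 878 in the 4 aldosterone libraries. The highest aldosterone library, the second plate of sample number 1, was still below the lowest vehicle library (log2 fold change -0.48, SE 0.0684, adjusted p = 0.000135 by limma). Its cyclin Ccnb2 had a log2 fold change of -0.51 and its activating phosphatase Cdc25c had -0.69. The tables also list a pseudogene, Ccnb2-ps, with a mean of 40.0 normalized counts in vehicle and 38.7 with aldosterone, and reads of near-identical copies may be split between them. Cks2 and Cks1b are small proteins that dock on CDKs, and Cks2 fell by 0.44 on the log2 scale while Cks1b did not pass the test. Cks1b stood at 1229.9, 1085, 1047 and 942 normalized counts in the 4 vehicle libraries and at 966, 1014, 917 and 1003 in the 4 aldosterone libraries. The aldosterone libraries all lay within or below the range of the vehicle libraries, and the groups overlapped (log2 fold change -0.14, SE 0.0760, adjusted p = 0.348 by limma).

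The 4 ubiquitin genes fell. Cdc20, which activates the anaphase-promoting complex or APC/C, had a log2 fold change of -0.58. Ube2c, the ubiquitin-conjugating enzyme of the APC/C, had -0.67, Cdca3 had -0.69 and the ubiquitin ligase G2e3 had -0.29. The cytokinesis genes also fell, by 0.63 for Anln, which scaffolds the contractile ring, and by 0.62 for Ect2, which is needed for the cleavage furrow to form.

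Of 14 genes of the spindle and microtubules, 10 fell, and the median log2 fold change was -0.55. The log2 fold changes of the first 8 were Ckap2l -0.75, Dlgap5 -0.68, Gas2l3 -0.68, Nusap1 -0.64, Tacc3 -0.63, Hmmr -0.59, Tpx2 -0.59 and Ckap2 -0.51. Among these, Tpx2 activates Aurora A on the spindle and Tacc3 works with Ckap5 and clathrin to bundle spindle fibres. Gtse1 and Jpt1 had -0.32 and -0.32. Gtse1 was the one called member whose libraries overlapped, since its second plate of sample number 1 with aldosterone (1046) was above its lowest vehicle library (1032).

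The 8 members that limma did not call against vehicle were Tubb4b, Rangap1, Ckap5 and Psrc1 of the spindle group, Lbr, Cbx5 and Tmpo of the nuclear group, and Cks1b. Some of them were near the threshold, and of 10 other tools, scalings, filters and blocks, 7 called Ckap5 lower, 6 Psrc1, 4 Rangap1, 3 Tubb4b and 1 Lbr. Ckap5 is a polymerase that lengthens microtubules. Ckap5 stood at 2988, 2936, 2937 and 3093 normalized counts in the 4 vehicle libraries and at 2724, 2596, 2621 and 2747 in the 4 aldosterone libraries. All aldosterone libraries lay below all vehicle libraries, but the difference was small (log2 fold change -0.16, SE 0.0505, adjusted p = 0.0535 by limma). Psrc1 is a microtubule-binding protein of the spindle. Psrc1 stood at 1787, 1799, 1994 and 1917 normalized counts in the 4 vehicle libraries and at 1699, 1685, 1674 and 1642 in the 4 aldosterone libraries. Here too the groups did not overlap (log2 fold change -0.16, SE 0.0555, adjusted p = 0.0848 by limma). Rangap1 activates the Ran GTPase, which guides transport into the nucleus and spindle assembly. Rangap1 stood at 2015, 1970.1, 1937 and 1894 normalized counts in the 4 vehicle libraries and at 1780.0, 1893, 1606 and 1647 in the 4 aldosterone libraries. Its groups were apart by less than 1 normalized count at their nearest point (log2 fold change -0.18, SE 0.0611, adjusted p = 0.0846 by limma).

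Tubb4b encodes a beta-tubulin and had the highest level of the members per length, at 2328 normalized counts per kilobase in vehicle. Tubb4b stood at 5225, 5063, 4692 and 4462 normalized counts in the 4 vehicle libraries and at 4701, 4699, 3908 and 3839 in the 4 aldosterone libraries. Within each treatment the libraries of sample number 1 were higher than those of sample number 2, and the groups overlapped across sample numbers (log2 fold change -0.19, SE 0.0754, adjusted p = 0.158 by limma). The table lists the copies Tubb4b-ps1, with a mean of 60.8 normalized counts in vehicle, and Tubb4b-ps2, with 0.898. Lbr anchors the lamina to the inner nuclear membrane. Lbr stood at 863, 839, 819 and 784 normalized counts in the 4 vehicle libraries and at 827, 723, 730.1 and 660.1 in the 4 aldosterone libraries. The first plate of sample number 1 with aldosterone lay inside the vehicle range (log2 fold change -0.17, SE 0.0733, adjusted p = 0.181 by limma). With the sample number taken as a replicate block, 51 members were lower, against 8.02% of all genes, and the 5 added were Tubb4b, Rangap1, Lbr, Ckap5 and Psrc1, with adjusted p from 0.00115 to 0.0483 by limma. Lbr was not called when the plates of a sample number were averaged under the same block.

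The other 3, Cks1b, Cbx5 and Tmpo, did not pass with the block either. Cbx5 encodes a heterochromatin protein that binds methylated histones. Cbx5 stood at 3242, 3248, 3363 and 3280.4 normalized counts in the 4 vehicle libraries and at 3216, 3188, 3019 and 3085 in the 4 aldosterone libraries. The highest aldosterone library was below the lowest vehicle library, yet the interval of the log2 fold change, -0.18 to 0.03, included 0 (log2 fold change -0.07, SE 0.0497, adjusted p = 0.484 by limma). Tmpo encodes proteins of the nuclear lamina and was the one member with a higher fitted value (chr10:90983433-91017177). Tmpo stood at 2917, 2886, 3455 and 3658 normalized counts in the 4 vehicle libraries and at 2835, 2904, 3706 and 3837 in the 4 aldosterone libraries. Its libraries split by sample number, with those of sample number 2 higher in both treatments, and not by treatment (log2 fold change 0.03, SE 0.100, adjusted p = 0.895 by limma). The sign of its change was negative within sample number 1 (-0.016) and positive within sample number 2 (0.0849). The rest of the nuclear and chromatin group fell. Log2 fold changes were -0.46 for Pimreg, -0.39 for the DNA-bending protein Hmgb2, -0.26 for the histone chaperone Anp32e and -0.19 for the insulator protein Ctcf. The calls of Ctcf and of Gtse1 were lost in 7 of the 8 fits that left out a library.

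Levels are compared between genes per length. The members spanned 31.5 to 2328 normalized counts per kilobase in vehicle, from Cdc25c to Tubb4b. The median log2 fold change was -0.39 over the 27 members with the highest levels per kilobase and -0.64 over the 27 with the lowest. These are descriptions over genes, which are not replicates.

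The second comparison set aldosterone against spironolactone, the receptor antagonist, in a table normalized on its own and with the same aldosterone libraries. All 54 members had lower fitted values with aldosterone, 45 fell and 0 rose, with a median log2 fold change of -0.62. Of all 27631 genes here, 3.96% were called lower and 4.93% higher, and the median was -0.01. None passed both thresholds, which 0.521% of all genes did on the lower side, again because no fitted fall reached 1, by limma, edgeR or DESeq2. In 49 members every aldosterone library lay below every spironolactone library, against 6.22% of all genes. The 9 that limma did not call were G2e3, Ctcf, Tubb4b, Rangap1, Lbr, Ckap5, Cks1b, Cbx5 and Tmpo. Of the same 10 alternatives, 6 called Ckap5, 6 Cks1b, 6 Rangap1, 4 Tubb4b, 2 Ctcf and 1 Lbr lower. Bub1 had a log2 fold change of -0.97, Kif23 -0.93, Cdca3 -0.89, Top2a -0.84 and Mki67 -0.83. At the other end stood Cbx5 with -0.01 and Tmpo with -0.00248. With the sample number taken as a replicate block 50 were lower, against 6.8% of all genes, the added ones being Cks1b, Ckap5, Tubb4b, Rangap1 and Ctcf.

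The third comparison, spironolactone against vehicle, gave no called member on the 8 libraries. By limma 0 of the 54 had an adjusted p of at most 0.05 (smallest 0.934), 3 had an unadjusted p under 0.05, against 4.53% of all genes, and edgeR and DESeq2 on the recovered reads also called 0. Of all 27598 genes 0% were called by limma. The median log2 fold change was 0.04, and 44 of 54 fitted values were above 0 and 10 below. Of all 27598 genes, 13588 had a fitted value below 0. The 95% intervals of all 54 lay within 0.5 of 0 on the log2 scale, the widest bounds being -0.26 and 0.40. In 4 members (Ckap2l, Cdca3, Ube2c and Ckap2) every spironolactone library was above every vehicle library, a pattern that 1.39% of all genes showed. In Hjurp every one was below, which was so for 342 of the 27598 genes. Cdca3 had the largest fitted change, at 809, 847, 792 and 819 normalized counts with spironolactone and 728, 684, 761 and 665 with vehicle. That is a log2 fold change of 0.20 (SE 0.0648, adjusted p = 0.934 by limma). Cdca3 was called (adjusted p = 0.0331 by limma) when the plates of a sample number were averaged and the sample number was taken as a replicate block, a fit with 1 residual degree of freedom per gene.

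Members that work as partners were then compared with each other within a library, as the log2 ratio of their normalized counts. Over 12 pairs, of which 3 share Aurkb as the first gene, 5 had an exact p of 0.0286 by a two-sided exact permutation test. This is the smallest p that 4 against 4 libraries allow. After Benjamini-Hochberg adjustment over the 12 pairs 0 passed (smallest adjusted p = 0.0686, exact permutation test). With 5 pairs at the smallest p, none could pass whatever the size of its difference, so this count does not show unchanged ratios. With aldosterone minus vehicle, the log2 ratio differed by -0.47 (SE 0.0807) for Tacc3 to Ckap5. It differed by 0.39 (SE 0.0433) for Smc4 to Ncapd2 and by 0.31 (SE 0.0847) for Cks1b to Cks2. For Hjurp to Cenpa the difference was 0.28 (SE 0.0579) and for Ect2 to Kif23 it was 0.25 (SE 0.0605). In these 5 pairs the libraries of the treatments did not overlap. The other 7 pairs overlapped, among them Cdk1 and Ccnb2, whose ratio differed by 0.03 (SE 0.0474), and Ndc80 and Nuf2, with 0.08 (SE 0.108).

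**Figure D4:**
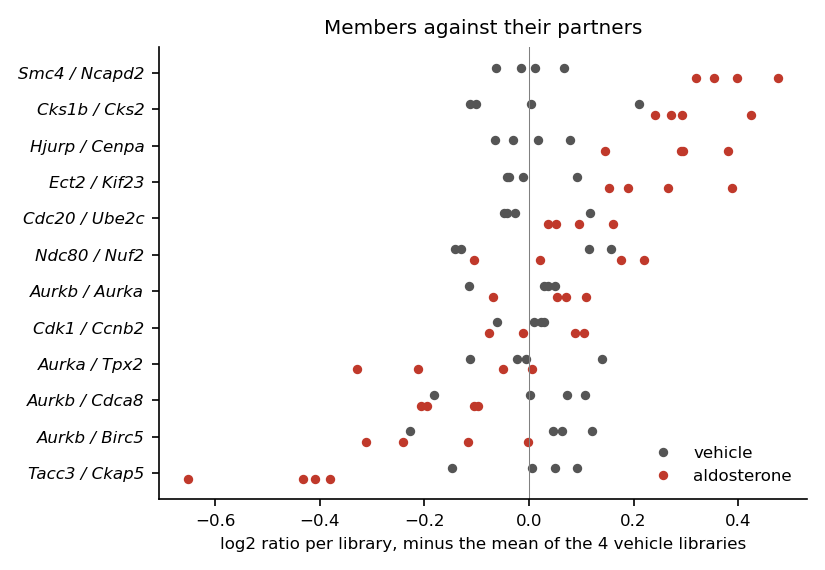
Log2 ratio of the members of 12 pairs in every vehicle and aldosterone library, after subtracting the mean of the 4 vehicle libraries. Tacc3 against Ckap5 lies lowest and Smc4 against Ncapd2 highest with aldosterone, and 7 pairs overlap.

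The falls were compared between the sample numbers, each of which has 2 plates per treatment. All but Tmpo were lower with aldosterone within both sample numbers, 53 of 54. The median log2 fold change was -0.53 within sample number 1 and -0.65 within sample number 2, and 38 of 54 values were lower within the latter. With only the 2 plates per treatment of a sample number, limma called 0 members in sample number 1, where 48 were lower at an unadjusted p under 0.05 and 17 of all 27319 genes were called. In sample number 2 it called 14 members, with 47 lower at an unadjusted p under 0.05 and 888 of all genes called. For Bub1 the values were -0.68 and -1.07, and for Cenpe -0.66 and -0.94. The limma interaction of treatment and sample number called 0 members (smallest adjusted p = 0.895), and 5 had an unadjusted p under 0.05, namely Kif20b, Cenpe, Hmmr, Bub1 and Nuf2. Of all genes 0.0146% were called, and 4.96% had an unadjusted p under 0.05. Between the sample numbers themselves 5 members differed at an adjusted p of at most 0.05 by limma, against 8.77% of all genes. Tmpo was higher in sample number 2, by 0.34 on the log2 scale (SE 0.0428, adjusted p = 8.04e-07 by limma). Nuf2, Tpx2, Tubb4b and Anln had differences of -0.26, -0.18, -0.22 and -0.17 (sample number 2 minus 1).

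Mitosis genes that are not in the list were examined beside it. Of 79, 59 fell with aldosterone and 1 rose, with a median log2 fold change of -0.57 against -0.59 for the 54. The kinase Plk1 had -0.76, the cyclins Ccna2 and Ccnb1 had -0.69 and -0.55, and the largest fitted fall was -0.99 for Depdc1b. Wee1, the kinase that holds Cdk1 inactive, was the one that rose, by 0.44 (adjusted p = 0.00136 by limma). Against spironolactone 63 of the 79 fell and Wee1 rose, by 0.44. Other subunits of the condensin complexes, to which Smc4 and Ncapd2 belong, ran from -0.73 for Ncapg2 and -0.63 for Smc2 to -0.20 for Ncapd3 and 0.02 for Ncaph2, neither of the last pair being called.

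Of 23 transcription regulators of the programme, 10 fell and 2 rose, with a median of -0.16. Foxm1 and Mybl2, activators of G2/M promoters, had log2 fold changes of -0.67 and -0.82. The other 8 that fell were Mybl1 (-0.66), Lin9 (-0.63), Rbl1 (-0.37), E2f3 (-0.25), E2f7 (-0.53), E2f8 (-0.73), Nfya (-0.26) and Nfyb (-0.37). Rbl2, the pocket protein of resting cells, rose by 0.30 (adjusted p = 0.0088 by limma) and Tfdp2, a dimer partner of E2F proteins, by 0.30. E2f1, an activator of the S-phase genes, did not pass the test (-0.16, adjusted p = 0.152 by limma). Against spironolactone 7 of these regulators fell and 2, again Rbl2 and Tfdp2, rose. Of 24 genes of the APC/C core, checkpoint and exit phosphatases, 2 fell (Zwilch -0.79 and Cdc27 -0.24), 2 rose (Ppp2r2d 0.21 and Anapc16 0.22) and the median was -0.003, while the activator Cdc20 and the enzyme Ube2c of the same complex, both members, fell.

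**Figure D5:**
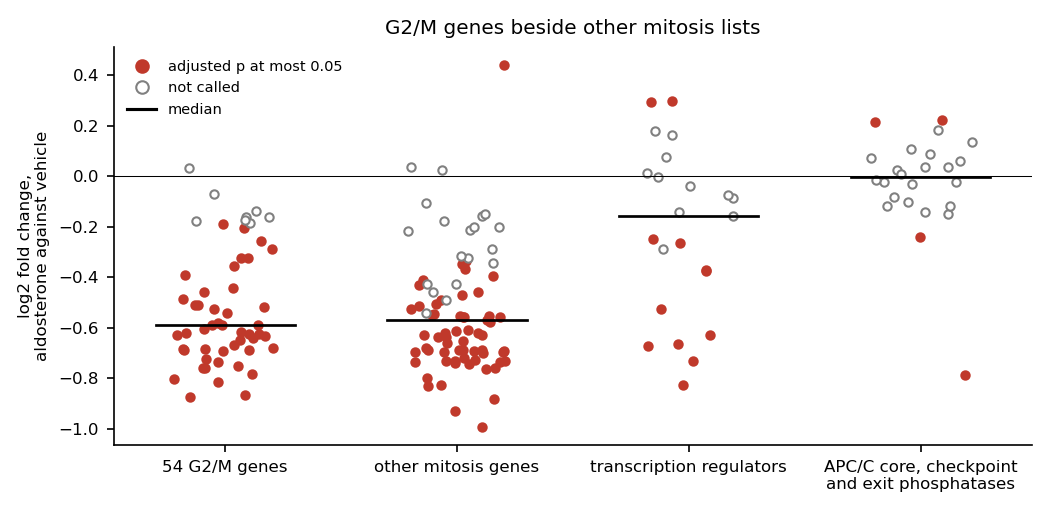
Log2 fold change of aldosterone against vehicle for each of the 54 G2/M genes, 79 other mitosis genes, 23 transcription regulators and 24 genes of the APC/C core, checkpoint and exit phosphatases, filled where the adjusted p was at most 0.05, with a line at each median. The first 2 lists have medians of -0.59 and -0.57, and the last lies around 0.

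Markers of the labelled and of other cell types were summed in each library. The 10 fibroblast markers summed to 1669600 to 1775500 normalized counts with vehicle and 1400000 to 1585600 with aldosterone, and none of the 10 was at or below 3 in every library. Of these, 8 had a lower fitted value, and the median log2 fold change of the 10 was -0.23. Col3a1 was called lower (log2 fold change -0.43) and Pdgfra and Vim higher (0.91 and 0.48). Blocking on the sample number gave 8 fibroblast markers called lower, against 8.02% of all genes. With it, 10 changed in either direction, against 4563 of all 27319 genes. Myogenic markers (10 of 12 in the table) summed to 562 to 820 with vehicle and 257 to 494 with aldosterone, and 1 of them was called lower, the muscle actin Acta1. Their defining genes were near 0, with vehicle means of 0.915 for Pax7, 2.58 for Myod1 and 1.84 for Myog. Macrophage markers (11 of 15 in the table) summed to 448 to 597 with vehicle and 356 to 436 with aldosterone. F13a1 was called lower and Cd14 higher, and Ptprc was at 0 in all 4 aldosterone libraries. Of the 11, only 5 had a lower fitted value, and 4 were at or below 3 normalized counts in every library. The log2 fold changes of the 11 ran from -2.38 to 0.95, with a median of 0.08. Endothelial markers (8 of 8) summed to 612 to 648 and 776 to 803, Schwann and neural markers (6 of 6) to 318 to 449.8 and 422 to 583, and pericyte and smooth muscle markers (6 of 6) to 10065 to 13572 and 7810 to 12503. Among these, Kdr of the endothelial list was called higher, by 1.88 on the log2 scale. However, 4 of the 8 endothelial markers had a lower fitted value, down to -0.95, and their median log2 fold change was 0.09. Blocking on the sample number gave 1 endothelial marker called lower (8.02% of all genes) and 3 changed in either direction (4563 of all 27319 genes). S100b of the Schwann and neural list was called higher, by 0.50. Of the pericyte and smooth muscle markers, 0 were called by limma (2 at an unadjusted p under 0.05). All 6 had a lower fitted value, with a median log2 fold change of -0.25. With the block 2 of them were called lower, against 8.02% of all genes. The part of these shifts in the fall of the G2/M genes was not tested.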

How the data were processed

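Poly(A) RNA of 12 plates of primary neonatal mouse hindlimb muscle fibroblasts was sequenced, 4 per treatment. Per the labels' processing notes reads were aligned with HISAT2 (version 2.0.5) to mm39 and assigned to genes with featureCounts (version 1.5.0-p3), while the methods of the study name mm9, with which the positions in the tables did not match. Whether the counting used the strand is not given in the sources used here. The authors deposited 3 tables, one per pair of treatments, whose signal values are counts per gene scaled by each library's size factor. The log2 fold changes and p-values the authors deposited in the same tables hold their own comparisons and were not used. Per the values, 100% were whole multiples of a single step in 22 of 24 columns (tolerance 0.01), which gave the reads. For the other 2 columns the reads came from the other table of that library. Depth was 19136923 to 30219185 reads on genes per library.

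Each pair of treatments was tested on its own table with limma (version 3.58.1, R 4.3.3) on log2(normalized count + 1), with a trended prior variance and Benjamini-Hochberg adjustment over all genes. Calls used an adjusted p of at most 0.05, alone or with a log2 fold change of 1 or more in either direction. This scale understates the change of low genes. Partner ratios were tested with exact permutation tests in SciPy. Alternatives were edgeR (version 4.0.16) and DESeq2 (version 1.42.0) on the recovered reads, TMM and upper-quartile scaling, a pseudocount of 0.5, a mean of at least 10, replicate blocks, single sample numbers and leaving out each library. The scripts were tested on simulated data.

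The labels number the libraries of each treatment alike. Deviations from the group means were correlated between treatments for libraries that share a sample number. Pearson's r across genes, which are not independent replicates, ran from 0.135 to 0.291, all above 0.1, so the sample number pairs the samples. The block on it is given where it changes a call of a member. Calls in the other lists are without it unless stated. With the block, 67 of the 79 other mitosis genes and 12 of the 23 regulators were lower against vehicle. Of the 24 genes of the APC/C core, checkpoint and exit phosphatases, 3 were, against 8.02% of all genes. Against spironolactone the block gave 69, 8 and 3, against 6.8% of all genes.

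The members and lists were chosen with earlier results of these data known. All 54 members are named. Values in every library are given for the 6 largest and 6 smallest changes against vehicle, for members that did not pass, and for Mki67, Top2a, Cdk1, Aurkb, Ndc80 and Smc4. Values of Gtse1 and Cdca3, and Plk1, Ccna2, Ccnb1, the condensin subunits and the marker genes among the others, were chosen after their values were seen. Promoter sequences are from RefSeq (GRCm38.p6), 250 bases before to 50 after the start, and Pimreg, Cdca2, Tpx2, Dlgap5, Aurkb, Smc4 and Cdc25c had no window there.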

Additional observations from a re-analysis of the deposited data

Results flagged for a closer look

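The gap of the highest or lowest library to the nearest of the other 3 was compared with the range of its group for each member and treatment, 162 groups in all, of which chance alone would flag about 1 in 20. It was large in 3 of them. Dlgap5, a spindle protein, stood at 375 normalized counts in the second aldosterone plate of sample number 1, while the other 3 aldosterone libraries lay between 325 and 332. Tubb4b stood at 5353 normalized counts in the second spironolactone plate of sample number 1, against 4862 to 4901 in the others. Pimreg stood at 487 normalized counts in the first spironolactone plate of sample number 1, against 387 to 402 in the others. The 3 values are in 3 different libraries.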

How the results depend on the processing

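Against vehicle, 45 to 51 members were lower under other tools, scalings, filters and blocks (edgeR 48, DESeq2 49), and 41 to 45 with a library left out. In the main fits 4.74% of all genes were called lower against vehicle and 3.96% against spironolactone. Within a single sample number, with 2 libraries a group, 0 were called lower by limma in sample number 1 (48 at an unadjusted p under 0.05) and 14 in sample number 2. Of all 27319 genes, 17 and 888 were called there in either direction. Against spironolactone the counts were 45 to 51, and 43 to 45 with a library left out. There, limma gave 0 in sample number 1 alone (45 at an unadjusted p under 0.05) and 20 in sample number 2 alone. Of all 27631 genes, 4 were called in sample number 1 alone and 943 in sample number 2 alone, in either direction. The smaller number of libraries is built into these counts. Members past both thresholds against spironolactone numbered 0 to 1 with a library left out, the 1 being Bub1 without the first aldosterone plate of sample number 1 or without either spironolactone plate of sample number 2. Between spironolactone and vehicle 1 member, Cdca3, was called with the plates of a sample number averaged and the sample number taken as a replicate block, which leaves 1 residual degree of freedom per gene; the cause was not tested. With that replicate block alone, 51 members were lower against vehicle (8.02% of all genes) and 50 against spironolactone (6.8% of all genes). Between spironolactone and vehicle 0 members changed with it, beside 97 of all 27598 genes. Apart from the added members it changed no other call of a member. Among the called members, Ctcf and Gtse1 lost their call against vehicle in 7 of 8 fits with a library left out, G2e3 and Anp32e in 5 and Ttk in 3. Against spironolactone Gtse1 lost its call in 7 and Psrc1 in 1, without the first spironolactone plate of sample number 2. Ctcf also lost its call against vehicle under 2 of the other 10 alternatives. Calls were gained as well, against vehicle by Ckap5 in 7 of these 10, Psrc1 in 6, Rangap1 in 4, Tubb4b in 3 and Lbr in 1, and with a library left out by Ckap5 in 2 fits and Rangap1 in 1. Against spironolactone Ckap5, Cks1b and Rangap1 gained a call in 6, Tubb4b in 4, Ctcf in 2 and Lbr in 1, and with a library left out Ckap5 in 2 and Lbr in 1.

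The sign of the log2 fold change turned for members near 0. For Tmpo against vehicle it was -0.016 in sample number 1 alone and between -0.040 and 0.106 with a library left out. The negative values were -0.023 and -0.040 without each aldosterone plate of sample number 2, and -0.012 and -0.017 without each vehicle plate of sample number 1. For Tmpo against spironolactone it was 0.0039 with edgeR, 0.0041 with DESeq2, 0.049 in sample number 2 alone and between -0.076 and 0.068 with a library left out. For Cbx5 against spironolactone it was 0.0080 in sample number 1 alone and between -0.034 and 0.018 with a library left out. With only the bases before the start, 19 of 47 promoters held both CHR letters and CCAAT, and 2 held TGTTCT.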
